A study of Mus musculus with 10 samples.

Results

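Cadherins and non-clustered protocadherins are compared here between a mouse melanoma line and its liver-passaged subline, for 10 genes chosen by name for their place in this superfamily, with earlier results of these data known. The 10 genes are *Cdh1*, *Cdh2* and *Cdh3* (type I cadherins), *Cdh10*, *Cdh11* and *Cdh19* (type II cadherins), *Cdh13* (a cadherin held in the membrane by a lipid anchor), and the protocadherins *Pcdh1*, *Pcdh7* and *Pcdh18*. They are 10 of 55385 gene identifiers in the expression tables. The mice from which the parental line WT31 came had the genotype Tyr::NrasQ61K/°; INK4a-/-, in which a tyrosinase promoter drives mutant *Nras* in pigment cells and INK4a is lost. The subline, WT31_P5IV, came from WT31 by 5 rounds of intravenous injection, recovery of liver metastases and expansion in culture, and shares this genotype of origin. RNA was taken from both lines while they grew sub-confluent in RPMI medium with fetal calf serum and penicillin/streptomycin, with no drug treatment. Each group had 5 libraries that the labels call biological replicates. They come from 1 line and 1 subline, and nothing in the labels says that they were separate cultures, so the p-values measure the spread between libraries only. The question is which adhesion receptors of this family were transcribed at another level after hepatic passaging.

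Classical cadherins are calcium-dependent receptors that bind like molecules on the neighbouring cell and are tied to actin by catenins. Melanocytes in the epidermis are held to keratinocytes by E-cadherin and P-cadherin, and melanomas often carry N-cadherin in their place. Non-clustered protocadherins have longer ectodomains and no catenin-binding tail, adhere weakly, and pass signals through their own cytoplasmic motifs.

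Libraries held 24255389 to 25750639 estimated counts, so that the limit of detection of 3 counts lay at 0.114 to 0.129 CPM, the counts of a gene scaled to the library total with TMM factors. These limits and all intervals of counts cover counting error only. Of 13620 genes tested with edgeR, 68.5% had an adjusted p under 0.05, 9.10% also lay at or beyond a log2 fold change of 1 in either direction, the filter of the study, and 54.1% did not overlap in CPM between the groups. The median log2 fold change of all tested genes was 0.01. All 7 melanocyte lineage markers were above a mean of 1 TPM, a unit that also corrects for transcript length,, with a summed level of 14400 to 15200 TPM in WT31 and 16100 to 17900 TPM in WT31_P5IV. None of 6 hepatocyte, 6 endothelial, 6 stellate cell and fibroblast or 6 epithelial markers reached a mean of 1 TPM. Of 6 macrophage and leukocyte markers *Cd68* reached it, with 1.65 to 4.25 TPM in WT31 and 6.11 to 9.79 TPM in WT31_P5IV, and the other 5 stayed at or below 0.228 TPM in every library, with *Clec4f* at 0 in all of them and *Csf1r* the highest. Of 4 keratinocyte markers *Krt10* reached it, with 2.14 to 3.76 TPM in WT31 and 0.322 to 0.734 TPM in WT31_P5IV.

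Of the 10 members 7 were high enough to be tested, and *Cdh1*, *Cdh10* and *Cdh13* were not. At an adjusted p under 0.05, 5 of the 7 tested members differed, against the 68.5% of all tested genes. *Cdh2* and *Cdh19* were higher in WT31_P5IV, and *Cdh11*, *Pcdh1* and *Pcdh18* were lower. The last 3 also passed the filter on fold change, where the share among all genes was 9.10%, and no member passed it upwards. CPM of the groups did not overlap for *Cdh11*, *Cdh19*, *Pcdh1* and *Pcdh18*, 4 of the 7 tested members, against 54.1% of all tested genes. The median log2 fold change of the tested members was -0.04, and it was the same with *Pcdh18* set at its bound from the limit of detection. Since the 10 genes were chosen with earlier results of these data known, these counts are a description. In RNA from whole cultures, fewer cells with a transcript and less of it per cell cannot be told apart.

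**Figure D1:**
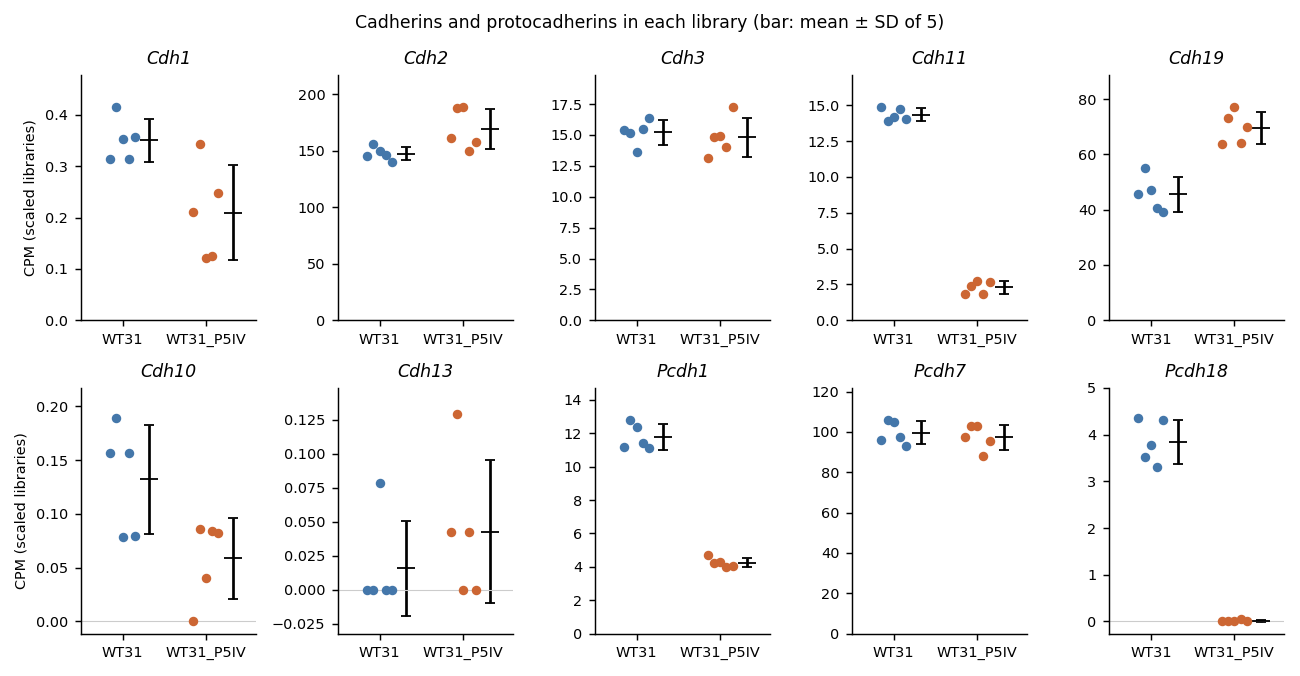
Each panel shows one gene, with CPM of every library on a linear axis of its own, WT31 in blue and WT31_P5IV in orange, and the mean ± SD of 5 libraries beside them. *Cdh11*, *Pcdh1* and *Pcdh18* separate downwards and *Cdh19* upwards, while *Cdh2*, *Cdh3* and *Pcdh7* overlap. *Cdh1*, *Cdh10* and *Cdh13* stay below 0.5 CPM in every library.

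Of the type I cadherins, *Cdh2* encodes N-cadherin, the cadherin of neural, mesenchymal and many melanoma cells. It had the highest level per transcript length of all 10 genes in both lines, with 55.6 ± 3.68 TPM (SD, n = 5) in WT31 and 56.0 ± 5.61 TPM in WT31_P5IV. Counts in the WT31 libraries 1 to 5 were 3710, 4127, 3815, 3717 and 3538. In WT31_P5IV they were 3817, 4382, 4703, 3558 and 3833. Libraries 2 and 3 of WT31_P5IV were the highest of all and the lowest WT31_P5IV library lay within the range of WT31. Mean CPM rose from 147 ± 5.94 to 169 ± 18.1, a log2 fold change of 0.20 (SE 0.06, edgeR adjusted p = 0.0109). This call was lost when libraries were scaled by their totals only (0.13, edgeR adjusted p = 0.0678) and on log2(TPM + 0.1) (0.01, limma adjusted p = 0.925). On that TPM scale the median log2 fold change of all tested genes was -0.14, compared with 0.01 in CPM, and *Cdh2* lay 0.15 above the median, compared with 0.19 above it in CPM.

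*Cdh3* encodes P-cadherin, found in basal epidermis and hair follicles. It lies on chr8:106510891-106557297 (GRCm38, forward strand), with *Cdh1* 46.1 kb away on the same strand at chr8:106603351-106670246. Its counts ranged between 347 and 414 in WT31, and in WT31_P5IV between 311 and 420, with the WT31 range inside that of the subline. Mean CPM was 15.2 ± 1.01 in WT31 and 14.8 ± 1.59 in WT31_P5IV. The log2 fold change was -0.04 (SE 0.07, edgeR adjusted p = 0.662), and 2 standard errors either side of it reached from -0.19 to 0.11.

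*Cdh1* encodes E-cadherin, the epithelial cadherin that anchors normal melanocytes. Rounded counts were 8, 11, 9, 8 and 9 in WT31 libraries 1 to 5. They were 5, 8, 3, 3 and 6 in WT31_P5IV. Every library was thus near the limit of detection, and the groups met at 8 counts. Mean CPM was 0.351 ± 0.0420 in WT31 and 0.210 ± 0.0924 in WT31_P5IV (exact two-sided permutation test, unadjusted p = 0.0238, n = 5 per group), and edgeR without a count filter gave an adjusted p of 0.142. The depth-corrected ratio of summed counts, WT31 over WT31_P5IV, was 1.68, with a 95% counting interval from 1.01 to 2.87. The level of *Cdh2* over that of *Cdh1* in TPM was 187 to 499 in WT31 and 538 to 1650 in WT31_P5IV. In both lines N-cadherin transcripts exceeded E-cadherin transcripts by over 100 times. Epithelial markers were near 0 beside these values, with a summed level of 0.0150 to 0.0978 TPM in WT31 and 0.0590 to 0.255 TPM in WT31_P5IV, with *Krt18* and *Cldn4* at 0 in every library.

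Of the type II cadherins, *Cdh11* encodes cadherin-11 or OB-cadherin, a mesenchymal cadherin of osteoblasts and fibroblasts, and lies on chr8:102632095-102785642 (GRCm38, reverse strand). Counts were 380, 367, 362, 375 and 353 in WT31. They were 43, 56, 68, 44 and 65 in WT31_P5IV. The lowest WT31 library held over 5 times the counts of the highest WT31_P5IV library. Mean CPM fell from 14.3 ± 0.452 to 2.30 ± 0.444, a log2 fold change of -2.64 (SE 0.10, edgeR adjusted p = 1.27e-11), or 6.22-fold lower. It ranked 134 from the lowest log2 fold change of 13620 tested genes. Among the alternatives the log2 fold change ran from -2.71 to -1.66, the latter on log2(TPM + 1), a scale that compresses low genes. Of its 31-base transcript words 4.78% occurred in 9 other genes. The 6 stellate cell and fibroblast markers, none of which reached a mean of 1 TPM, had a summed level of 0.464 to 0.895 TPM in WT31 and 0.919 to 1.36 TPM in WT31_P5IV. *Col1a1* and *Col3a1* were higher in WT31_P5IV and *Pdgfrb* had a log2 fold change of -0.18 (edgeR adjusted p = 0.618), genes named after their values were seen. The part of such cells in the result for *Cdh11* was not tested.

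*Cdh19*, a type II cadherin of neural crest and Schwann cell precursors, lies on chr1:110888326-110977584 (GRCm38, reverse strand). Counts were 1161, 1457, 1206, 1036 and 992 in WT31. They were 1519, 1704, 1923, 1522 and 1692 in WT31_P5IV. All 5 subline libraries were above the highest parental library, with the narrowest margin in counts between WT31 library 2 and WT31_P5IV library 1. Mean CPM rose from 45.6 ± 6.28 to 69.7 ± 5.81, a log2 fold change of 0.61 (SE 0.08, edgeR adjusted p = 1.07e-05), or 1.53-fold. In TPM the means were 19.3 ± 3.17 and 25.8 ± 2.39 and the ranges met, 16.2 to 23.5 against 23.4 to 29.1. The rise was called under all 20 alternatives that test against no change, at log2 fold changes of 0.41 to 0.68. glmTreat, a test against a fold of 2, was not among them. Of the Schwann cell markers reported here, *S100b*, a calcium-binding protein gene, fell (log2 fold change -0.46, edgeR adjusted p = 9.53e-07), and *Erbb3*, the neuregulin receptor, rose (0.92, edgeR adjusted p = 1.38e-10). Their part in the result for *Cdh19* was not tested.

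*Cdh10*, a type II cadherin of the brain (chr15:18818947-19014236, GRCm38, forward strand), was barely detected, with counts of 4, 5, 2, 4 and 2 in WT31. WT31_P5IV held 0, 2, 1, 2 and 2. The ratio of summed counts was 2.27 with a 95% counting interval from 0.896 to 6.48, and the exact two-sided permutation test of CPM gave p = 0.0794 (n = 5 per group). *Cdh13*, whose product T-cadherin lacks a cytoplasmic tail and binds adiponectin, lies on chr8:118283733-119324921 (GRCm38, forward strand). It was at 0 in 4 of 5 WT31 libraries and in 2 of 5 WT31_P5IV libraries, and no library held more than 3 counts. No fold is given, since both groups were at or under the limit of detection (exact two-sided permutation test, p = 0.405, n = 5 per group). In TPM the exact permutation test gave p = 0.0317 for *Cdh10* and p = 0.563 for *Cdh13*. Values this close to single reads do not settle a difference at this depth.

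Of the protocadherins, *Pcdh18*, a delta-2 protocadherin known to bind the adaptor Dab1, lies on chr3:49743296-49757325 (GRCm38, reverse strand). Counts were 111, 93, 96, 84 and 109 in WT31. WT31_P5IV had 0, 0, 0, 1 and 0. The transcript was thus detected in all 5 parental libraries, and 1 count was found in the 5 subline libraries together. Mean CPM was 3.85 ± 0.470 in WT31 and 0.00842 ± 0.0188 in WT31_P5IV (edgeR adjusted p = 4.50e-11). Summed counts were 493 against 1, a depth-corrected ratio of 461 with a 95% counting interval from 82.4 to 18300. The fitted fold change depends on the prior count and is not given. None of the 31-base words of its transcripts occurred in another gene. *Dab1*, reported after its values were seen, held 0 counts in every library.

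*Pcdh1*, a delta-1 protocadherin of airway epithelium, lies on chr18:38185914-38212053 (GRCm38, reverse strand). Counts were 286, 339, 317, 291 and 281 in WT31. They were 112, 98, 106, 95 and 98 in WT31_P5IV. The ranges were far apart and narrow, with a coefficient of variation of 6.55% and 6.63% of CPM. Mean CPM fell from 11.8 ± 0.774 to 4.25 ± 0.281, a log2 fold change of -1.48 (SE 0.07, edgeR adjusted p = 2.34e-10), or 2.78-fold lower. Its transcripts shared no 31-base word with another gene.

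*Pcdh7*, the other delta-1 protocadherin, has a product that binds the phosphatase inhibitor SET, and lies on chr5:57717967-58133230 (GRCm38, forward strand). It was the second most abundant member in TPM in both lines. CPM in WT31 were 96.0, 106, 105, 97.6 and 93.1, and in WT31_P5IV 97.4, 103, 103, 88.1 and 95.7. The lines overlapped, and library 4 of WT31_P5IV was the lowest of all. The log2 fold change was -0.03 (SE 0.05, edgeR adjusted p = 0.577), with -0.13 to 0.07 at 2 standard errors either side. On log2(TPM + 0.1) it was -0.26 (limma adjusted p = 0.0084), 0.12 below the median of all genes on that scale. *Pcdh7* overlaps the opposite-strand transcript *4932441J04Rik*, named here after its values were seen, with which it shares 20.7% of its 31-base words. That gene held at most 36 counts in a library, far below the 2092 or more of *Pcdh7*.

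The start regions of the *Pcdh18* and *Pcdh7* genes are shown because one transcript was nearly lost and the other overlapped between the lines in CPM, though it was lower on the TPM scales. RefSeq windows from 250 bases before to 50 bases after the start (GRCm38.p6) were matched for 3 of the 10 members, these and *Cdh10*. They are written 5′ to 3′ on the strand of the gene, with each CG dinucleotide in capitals, from chr3:49757267-49757566 (reverse strand) and chr5:57717831-57718130 (forward strand).
Pcdh18: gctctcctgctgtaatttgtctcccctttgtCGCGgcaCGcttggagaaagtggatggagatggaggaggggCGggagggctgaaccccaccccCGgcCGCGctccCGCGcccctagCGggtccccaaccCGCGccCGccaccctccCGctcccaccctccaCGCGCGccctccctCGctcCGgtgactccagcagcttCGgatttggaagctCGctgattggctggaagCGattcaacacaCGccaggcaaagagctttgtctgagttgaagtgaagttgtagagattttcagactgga
Pcdh7: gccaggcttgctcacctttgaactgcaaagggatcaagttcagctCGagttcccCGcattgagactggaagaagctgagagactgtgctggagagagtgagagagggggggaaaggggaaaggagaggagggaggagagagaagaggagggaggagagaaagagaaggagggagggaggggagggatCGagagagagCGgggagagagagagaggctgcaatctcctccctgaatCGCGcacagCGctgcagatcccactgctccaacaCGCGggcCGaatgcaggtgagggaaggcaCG

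The *Pcdh18* window held 23 CG dinucleotides and 63.0% G and C, and the *Pcdh7* window 11 and 59.3%. The median of 32851 windows was 7 CG dinucleotides, and 21.5% held at least as many as *Pcdh18* and 41.4% as many as *Pcdh7*. The E-box CANNTG, which is its own reverse complement, was absent from the *Pcdh18* window and occurred 1 time in that of *Pcdh7*, as CAGGTG. In all, 72.3% of windows held CANNTG, and 20.2% held CAGGTG or its reverse complement CACCTG, which is one form of CANNTG. The *Cdh10* window held CANNTG 5 times, none of them as CAGGTG or CACCTG, and 2 CG dinucleotides. These counts describe the windows only.

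Levels per transcript length set an order of the members in each line. In WT31 the order of mean TPM was *Cdh2*, *Pcdh7*, *Cdh19*, *Cdh3*, *Pcdh1*, *Cdh11*, *Pcdh18*, *Cdh1*, *Cdh10* and *Cdh13*. Neighbouring ranges overlapped for *Pcdh1* and *Cdh11* and among the last 3. In WT31_P5IV *Pcdh7* (27 ± 2.66 TPM) and *Cdh19* (25.8 ± 2.39 TPM) had overlapping ranges, and *Pcdh18* came last, overlapping the range of *Cdh13*. *Cdh11* moved from 3.93 ± 0.140 to 0.558 ± 0.113 TPM and no longer overlapped *Pcdh1*, which moved from 4.41 ± 0.409 to 1.43 ± 0.102 TPM.

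**Figure D2:**
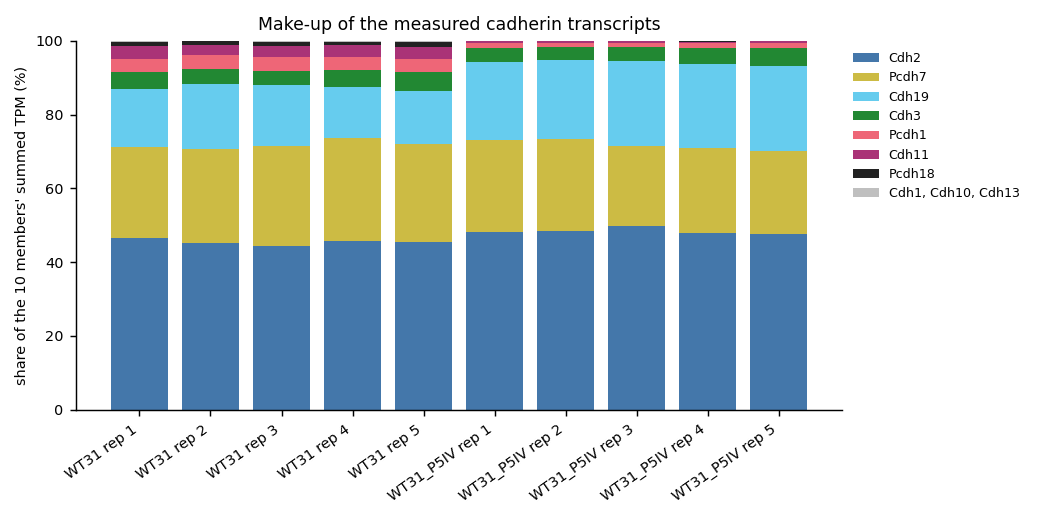
Stacked bars give the share of each gene in the summed TPM of the 10 members for every library, in percent. *Cdh2*, *Pcdh7* and *Cdh19* together fill 86.5 to 88.2% of the bar in WT31 and 93.1 to 94.6% in WT31_P5IV, and the bands of *Cdh11*, *Pcdh1* and *Pcdh18* thin out.

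The summed TPM of the 10 members was 122 ± 9.15 in WT31 and 116 ± 9.91 in WT31_P5IV, with overlapping ranges of 112 to 134 and 103 to 126. Within that sum *Cdh19* took 13.9 to 17.5% in WT31 and 21.3 to 23.1% in WT31_P5IV. *Cdh2* took 44.4 to 46.4% and 47.5 to 49.9%. *Pcdh7* took 24.8 to 27.8% and 21.5 to 24.9%, where the ranges overlapped. *Cdh11* fell back from 2.93 to 3.44% to 0.40 to 0.59%. The ratio of *Cdh2* to *Cdh11* in TPM had a median of 13.7 in WT31 and 107 in WT31_P5IV, and that of *Cdh19* to *Cdh11* a median of 4.60 and 47.1. The ratio of *Pcdh7* to *Pcdh1* had a median of 7.31 and 18.5. Shares and ratios are descriptions without a test.

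**Figure D3:**
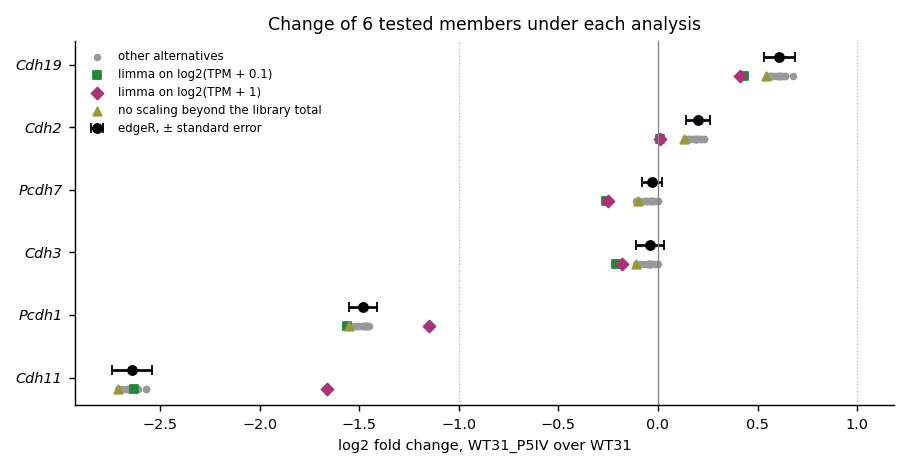
Log2 fold changes of WT31_P5IV over WT31 are plotted for 6 tested members, with the edgeR estimate ± standard error in black and the alternative analyses as smaller symbols below it. *Cdh11* and *Pcdh1* lie left of -1 in every analysis, *Cdh19* between 0.41 and 0.68, and the TPM scale moves *Cdh2*, *Cdh3* and *Pcdh7* to lower values. *Pcdh18* is left out because its subline libraries were at the limit of detection.

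The average transcript length of the 6 members with at least 10 counts in every library, inferred from counts and TPM relative to WT31, was nearly the same in both lines. It was 1.01 for both *Cdh3* and *Cdh11* in all WT31_P5IV libraries, without overlap, as for 28.2% of all genes compared. For *Cdh3*, which has 1 annotated transcript, this value does not measure a change in the mix of transcripts. *Pcdh7* varied most of these 6, between 0.936 and 1.05 in WT31 and between 0.936 and 1.11 in WT31_P5IV. *Cdh2*, *Cdh19* and *Pcdh1* stayed between 0.955 and 1.04 and overlapped.

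Other cadherins of the superfamily, with the clustered protocadherins left aside, numbered 39, of which 10 were tested. Of these 7 rose and 2 fell, with a median log2 fold change of 0.51. Among all 13620 tested genes 68.5% were called, 4709 higher and 4618 lower, with a median of 0.01, and the counts of this and the following lists stand beside that background as descriptions. *Cdh6*, a type II cadherin like *Cdh11*, fell from 22.9 ± 2.49 to 10.7 ± 0.794 CPM (log2 fold change -1.09, SE 0.08, edgeR adjusted p = 1.45e-08). *Cdh24*, another type II cadherin, rose from 9.73 ± 0.611 to 22.6 ± 2.11 CPM (1.21, SE 0.07, edgeR adjusted p = 1.60e-09). *Pcdh10*, a delta-2 protocadherin like *Pcdh18*, was low in both lines and rose from 0.665 ± 0.105 to 1.34 ± 0.215 CPM (1.01, SE 0.18, edgeR adjusted p = 1.40e-04). Its call was not kept under every alternative, where the limma adjusted p on a TPM scale reached 0.21. The type II and delta-2 cadherins therefore held genes of both directions. The 3 highest in TPM were the atypical cadherins *Cdhr4*, *Fat1* and *Celsr2*, which rose by 0.43, 0.67 and 0.59 on the log2 scale (largest edgeR adjusted p = 4.00e-06).

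Catenins and actin linkers join classical cadherins to the cytoskeleton, and 21 of 24 were tested. In all, 10 fell and 6 rose, with a median of -0.03. *Ctnna1*, alpha-catenin, fell by 0.43 on the log2 scale (edgeR adjusted p = 4.27e-08), and *Ctnnb1*, beta-catenin, fell by 0.19 (edgeR adjusted p = 8.31e-05), while *Actn4*, an actin crosslinker, rose by 0.14 (edgeR adjusted p = 0.00797). The call of *Actn4* was lost in TPM (0.02, limma adjusted p up to 0.648), where the median of all tested genes was -0.14 on log2(TPM + 0.1). *Plekha7*, a linker of p120-catenin to microtubules at epithelial junctions, was the only one past the filter and rose from 6.0 ± 0.162 to 22.1 ± 0.518 CPM (1.88, SE 0.05, edgeR adjusted p = 3.22e-13). Of 14 desmosomal genes only *Dsg2* and *Pkp2* were tested. Both rose from low levels, *Dsg2* from 0.569 ± 0.107 to 1.07 ± 0.148 CPM and *Pkp2* from 0.430 ± 0.194 to 0.932 ± 0.248 CPM (edgeR adjusted p = 5.30e-04 and 0.0041). The adjusted p of *Dsg2* reached 0.0677 among the alternatives.

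Transcription factors that switch between E-cadherin and N-cadherin were tested in 15 of 26 cases, and 7 fell and 3 rose (median -0.06). *Twist2*, a repressor of E-cadherin, had 4.38 ± 0.706 CPM in the parental line and 0.0671 ± 0.0489 CPM in the subline, under the limit of detection (edgeR adjusted p = 1.91e-10). *Snai2*, also a repressor of E-cadherin, fell from 6.44 ± 0.407 to 2.23 ± 0.227 CPM (-1.53, SE 0.09, edgeR adjusted p = 2.40e-09). *Grhl3*, an epithelial activator, fell from 2.86 ± 0.337 to 0.325 ± 0.124 CPM (-3.12, SE 0.21, edgeR adjusted p = 8.02e-09). Its relative *Grhl1* rose from 0.555 ± 0.264 to 1.26 ± 0.240 CPM (1.18, SE 0.26, edgeR adjusted p = 0.00109). The corepressor genes *Ctbp1*, *Hdac1* and *Hdac2*, the highest in TPM, had log2 fold changes of -0.03, -0.33 and -0.45 (edgeR adjusted p = 0.565, 2.76e-07 and 9.86e-08). A call of *Ctbp1* as lower was gained among the alternatives, where its log2 fold change reached -0.17. *Cdh1* was at or under 11 counts in all libraries beside these values, and *Cdh2* kept overlapping levels.

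**Figure D4:**
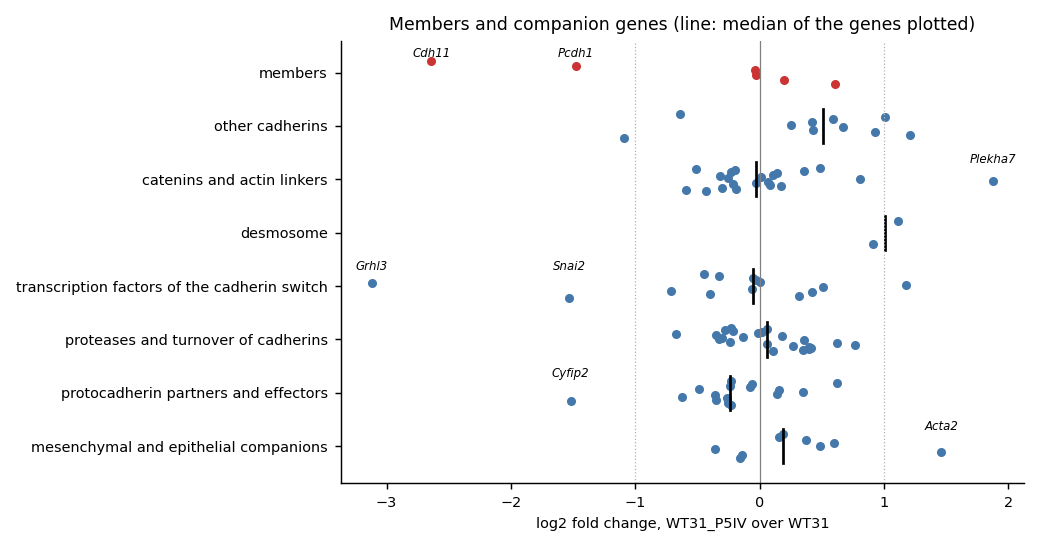
Each point is the log2 fold change of one tested gene, members in red and companion lists in blue, with the median of the plotted genes of each list as a black line and dotted lines at -1 and 1. *Pcdh18* and *Twist2* are left out because WT31_P5IV was at the limit of detection. Most companions lie between -1 and 1. *Grhl3*, *Snai2*, *Cyfip2* and *Cdh6* lie to the left, and *Plekha7*, *Acta2*, *Cdh24*, *Grhl1*, *Pkp2* and *Pcdh10* to the right.

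Proteases, kinases and trafficking genes that act on cadherins were nearly all tested, 23 of 26. Of these 9 rose and 9 fell, none passed the filter, and the median was 0.06. By mean TPM over both lines the highest were *Mmp14*, a membrane protease, *Psenen*, a gamma-secretase subunit, and *Arf6*, a small GTPase of endocytosis, which rose by 0.36, 0.27 and 0.18 (largest edgeR adjusted p = 0.0028). In TPM the calls of *Psenen* and *Arf6* were lost (limma adjusted p up to 0.13 and 0.913). The median of all tested genes was -0.14 on log2(TPM + 0.1). In WT31 alone *Rab11a*, a recycling GTPase named after its values were seen, was above *Arf6* (141 against 134 TPM), and it fell by 0.35 (edgeR adjusted p = 2.08e-06). Partners and effectors of protocadherins, mainly the WAVE complex that drives branched actin, were tested in 16 of 18 cases, and 10 fell and 4 rose (median -0.23, against 4618 lower and 4709 higher of all 13620 genes). *Cyfip2*, a WAVE complex subunit, fell from 240 ± 8.82 to 83.9 ± 1.08 CPM (-1.52, SE 0.03, edgeR adjusted p = 9.32e-14) and was the only one past the filter. *Set*, the partner of *Pcdh7*, fell by 0.24 on the log2 scale and *Nckap1*, another WAVE subunit, by 0.23 (edgeR adjusted p = 1.47e-04 and 5.15e-04), while the phosphatase gene *Ppp1ca* rose by 0.16 (edgeR adjusted p = 0.0126). In TPM the change of *Ppp1ca* turned to -0.01, still above the median of -0.14 of all tested genes, and was not called (limma adjusted p up to 0.831). Of 20 mesenchymal and epithelial companions 9 were tested, and 5 rose and 1 fell (median 0.19). *Vim*, vimentin, the highest of them, fell by 0.16 (edgeR adjusted p = 0.00277). *Fn1*, fibronectin, had a log2 fold change of -0.14 (edgeR adjusted p = 0.0539). A call of *Fn1* as lower was gained among the alternatives, where its log2 fold change reached -0.29. *Tgfb1* rose by 0.49 (edgeR adjusted p = 1.50e-05), and *Acta2*, smooth muscle actin, rose from 0.275 ± 0.164 to 0.758 ± 0.0939 CPM (edgeR adjusted p = 9.69e-04).

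The nearest tested genes on either side of the 3 members that fell past the filter did not share one direction. Beside *Pcdh18*, the cystine transporter gene *Slc7a11* at 135 kb fell from 395 ± 56.4 to 134 ± 11.6 CPM (-1.56, SE 0.09, edgeR adjusted p = 1.18e-09). On the other side, the transcript *Gm37819* at 605 kb had 0.0928 ± 0.0688 CPM in the parental line and 0.617 ± 0.136 CPM in the subline (edgeR adjusted p = 3.12e-05). Beside *Pcdh1*, *Fchsd1* rose by 0.74 (edgeR adjusted p = 5.87e-06) and the noncoding *1700086O06Rik* had a log2 fold change of -0.00 (edgeR adjusted p = 0.988). Within 1 Mb of *Pcdh1* 52 genes were tested, of which 24 rose and 11 fell, beside 68.5% called among all tested genes. Past the filter on fold change 11 of the 52 rose and 5 fell, beside 9.10% of all tested genes. Their median log2 fold change was 0.27. No gene was tested within 1 Mb of *Cdh11*, and its nearest tested genes, *Got2* and *Gm45663*, had log2 fold changes of -0.25 and -0.05 (edgeR adjusted p = 3.73e-06 and 0.915).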

How the data were processed

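RNA-seq of cultured WT31 and WT31_P5IV cells was used, 5 libraries each, grouped by sample titles (file labels number the WT31 libraries differently). Per the labels and the methods, the authors trimmed reads with Trim Galore 0.6.4 and pseudoaligned them with kallisto to mouse transcripts of GRCm38. The authors deposited kallisto's estimated counts per gene, and TPM values per gene, which are scaled for transcript length. The annotation release is not given in the sources used here. Symbols and positions came from GENCODE M21, which matched 55144 of 55385 identifiers. Whether the protocol kept the strand is not stated in the sources used here.

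Estimated counts were rounded and tested with edgeR 4.0.16 (filterByExpr, TMM, glmQLFit, glmQLFTest) in R 4.3.3. P-values were adjusted by Benjamini-Hochberg over 13620 genes. Standard errors came from the log2 fold change without prior count and the F statistic. Members below the filter had their CPM tested by exact permutation (two-sided, scipy 1.17.1), which cannot give a p under 0.00794 for 5 against 5. The script was tested on simulated data. Alternatives were DESeq2 1.42.0, limma 3.58.1 with voom or on log2(TPM + 0.1) and log2(TPM + 1), other scalings and count filters, a transcript length offset, a replicate block, glmTreat, and each library left out. No pair of libraries of a group agreed within sampling noise (at least 2.37 chi-square per gene).

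The members and lists were chosen with earlier results of these data known. All members were named, with the genes of each list past the filter (at most 6), the 3 of each list highest in TPM, and the nearest tested neighbours of members past the filter. At most 3 markers of a list with a mean of 1 TPM were named. *4932441J04Rik*, *Rab11a*, *Dab1*, *Krt18*, *Cldn4*, the 3 fibroblast genes and the leukocyte genes other than *Cd68* were added after their values were seen. A marker gene is not reported here, nor is the summed level of its list.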

Additional observations from a re-analysis of the deposited data

Results flagged for a closer look

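A single library stood apart from the other 4 of its group for 2 of the 20 sets of 5 CPM values looked at (10 genes in 2 groups), by the gap of the extreme library over the range of its group. Chance flags about 1 in 20 groups of normally spread values. A group with 1 library above 0 and 4 at 0 is always flagged, so that rate cannot be set against these 2. For *Pcdh18*, WT31_P5IV library 4 held 1 count (0.0421 CPM) and the other 4 held 0. For *Cdh13*, WT31 library 3 held 2 counts (0.0784 CPM) and the other 4 held 0. Both values lie under the limit of detection of 3 counts.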

How the results depend on the processing

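Over the 20 alternatives other than glmTreat, 4 to 5 members were called. Over all 21, 2 to 3 passed the filter on fold change. glmTreat, which tests against a fold of 2, called 3. The low ends of these ranges came from scaling by library totals, where *Cdh2* lost its call, and from the filter of 10 counts in every library. That filter removed *Pcdh18* from the test. On both TPM scales 5 members were called, but *Pcdh7* took the place of *Cdh2* (-0.26 and -0.25, limma adjusted p = 0.0084 and 0.00872). For single members, again without glmTreat, 166 of 172 alternatives kept direction and side of the threshold and 0 reversed. Of the 3 members below edgeR's count filter, 1 (*Cdh1*) differed in CPM and 2 (*Cdh1* and *Cdh10*) in TPM by the exact permutation test; leaving out each library in turn gave 1 in every case. With every gene of at least 1 count kept, *Cdh1*, *Cdh10* and *Cdh13* had edgeR adjusted p = 0.142, 0.2 and 0.433. The cause was not tested. With replicate numbers as a block, 5 members were called and 3 passed the filter. The numbers did not pair the libraries: same-numbered libraries correlated at -0.096 to 0.178, with 1 of 5 pairs over 0.1, and 2 of 5 WT31 libraries correlated best with their own number. Depth limits *Cdh1*, *Cdh10*, *Cdh13* and the subline level of *Pcdh18*, where single reads decide the values.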
